A study of Mus musculus with 12 samples.

Results

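The renin-angiotensin system genes described here are 9 mouse genes: Agt, Ren1, Atp6ap2, Ace, Mme, Enpep, Agtr1a, Agtr1b and Mas1. They were picked by name from a table of counts for 57490 genes, and each name matched 1 protein-coding gene. Kidney mRNA was sequenced from 12 male mice aged 13 weeks, 4 in each of 3 groups, to see what diabetes changes in the kidney and what the herbal decoction YHY (Yiqi Huoxue Yangyin) changes in diabetic mice. The Model and YHY mice were db/db animals of the line BKS.Cg-Dock7m +/+ Leprdb/JNju, whose leptin receptor gene is mutated, and they entered the study on account of a high random blood glucose. The Ctrl mice were db/m animals of the BKS background, called wild-type in the genotype label although the protocol describes heterozygotes, so they carried the db mutation as well. The YHY mice took a water extract of YHY at 6.24 g per mL by gavage once a day for 4 weeks, at 50 uL per 10 g of body weight, and the Ctrl and Model mice took purified water in the same volume. The labels do not place the YHY mice in a dose group, and they name the tissue as whole kidney where the design text of the series names the renal cortex.

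In this hormone system the protease renin, released by juxtaglomerular cells of the kidney, cuts angiotensinogen to angiotensin I, and angiotensin-converting enzyme turns that peptide into angiotensin II. Angiotensin II acts on the type 1 receptor to narrow vessels, to retain sodium and to restrain further renin release, while other peptidases divert or degrade the peptides, some of them towards a shorter form that acts on the Mas receptor. The kidney is both a source and a target of the system, and drugs that block the enzyme or the receptor are standard treatment in diabetic kidney disease.

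The number of counts on genes was 33276634, 29632718, 33236670 and 32677732 in Ctrl mice 1 to 4. It was 29784346, 26356745, 26095074 and 24415658 in Model mice 1 to 4, and 25310437, 25149764, 26187322 and 29698342 in YHY mice 1 to 4. Transcripts of the mitochondrial genome took a mean share of 19.5% ± 2.12 (SD, n = 4 mice) of these counts for Ctrl, of 52.2% ± 7.68 for Model and of 56.8% ± 5.21 for YHY, with no overlap between Ctrl and the diabetic groups. Their part in the differences between groups given below was not tested, and levels are therefore given as CPM, library-scaled counts with TMM factors, with the other scalings named where they turn a direction or a call. In the check of the tissue label, the proximal tubule gene Slc34a1 was between 965 and 2790 CPM in every mouse. Of 6 adrenal markers, Cyp11b2 and Cyp21a1 had at most 3 counts in every mouse, and only Star was tested, at 1.68 ± 0.300 CPM for Ctrl, 4.2025 ± 1.119 for Model and 3.60 ± 0.326 for YHY (SD, n = 4). None of the 5 adipose markers passed the filter on low counts. In whole tissue, fewer cells of a type and less RNA per cell cannot be told apart.

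Coordinates below are those of the deposited table, on GRCm39 per the submitters' processing notes. Agt (ENSMUSG00000031980) spans positions 125283273 to 125296445 of chromosome 8, and Ren1 (ENSMUSG00000070645) spans 133278248 to 133288063 of chromosome 1. The X-linked Atp6ap2 (ENSMUSG00000031007) lies at 12454040 to 12483288. Ace (ENSMUSG00000020681) lies on chromosome 11 at 105858771 to 105880790. Chromosome 3 carries Mme (ENSMUSG00000027820) at 63148958 to 63293451, Enpep (ENSMUSG00000028024) at 129062824 to 129126369 and Agtr1b (ENSMUSG00000054988) at 20368637 to 20421341. Agtr1a (ENSMUSG00000049115) lies on chromosome 13 at 30520424 to 30566850, and Mas1 (ENSMUSG00000068037) on chromosome 17 at 13059966 to 13087030. Their exons add up to between 1657 bases in Ren1 and 11542 bases in Mme, so levels are compared between members only as FPKM. These are counts per kilobase of exon after the same TMM scaling of the libraries as CPM.

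Promoters are shown for the precursor, for renin, for the converting enzyme and for the prorenin receptor, because these members differed in how they moved between the groups. The RefSeq promoter table, on build GRCm38.p6, matched 8 of the 9 members with 11 entries, and Agtr1a was without an entry. Each sequence is the stretch of 250 bases upstream of the annotated start, 5′ to 3′ on the strand of the gene. These are chr1:133350424-133350673 (plus strand) for Ren1, chr8:124569707-124569956 (minus strand) for Agt, chr11:105967698-105967947 (plus strand) for the first of 2 Ace entries and chrX:12587509-12587758 (plus strand) for Atp6ap2. Capitals mark 3 searched motifs on either strand, TATAAA as well as CCAAT and TGACG. The last of these is the core of the cyclic AMP response element, and a motif on the opposite strand appears as its reverse complement.
Agt: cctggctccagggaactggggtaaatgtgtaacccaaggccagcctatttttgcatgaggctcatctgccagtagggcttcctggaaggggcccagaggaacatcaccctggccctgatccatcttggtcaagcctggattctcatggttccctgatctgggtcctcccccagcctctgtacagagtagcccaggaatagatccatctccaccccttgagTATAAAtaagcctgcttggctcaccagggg
Ren1: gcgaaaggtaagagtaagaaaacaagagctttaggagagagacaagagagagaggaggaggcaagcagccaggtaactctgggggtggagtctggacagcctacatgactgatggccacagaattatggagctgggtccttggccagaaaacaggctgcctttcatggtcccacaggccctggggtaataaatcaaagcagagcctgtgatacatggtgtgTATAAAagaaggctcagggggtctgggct
Ace: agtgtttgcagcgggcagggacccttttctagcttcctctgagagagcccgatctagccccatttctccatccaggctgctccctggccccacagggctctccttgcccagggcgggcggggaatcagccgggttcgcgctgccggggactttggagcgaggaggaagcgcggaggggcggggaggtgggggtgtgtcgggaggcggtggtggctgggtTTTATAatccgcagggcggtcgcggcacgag
Atp6ap2: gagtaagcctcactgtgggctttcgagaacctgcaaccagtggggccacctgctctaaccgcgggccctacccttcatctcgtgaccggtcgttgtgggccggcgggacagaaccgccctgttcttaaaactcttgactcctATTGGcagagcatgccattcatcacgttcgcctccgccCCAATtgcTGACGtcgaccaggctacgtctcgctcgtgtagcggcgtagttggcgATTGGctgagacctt
TATAAA began 29 bases before the start in Ren1 and 30 bases before it in Agt, and on the opposite strand 31 bases before it in Ace. Over all 32851 promoters of the table, 12.4% held TATAAA, 33.9% held CCAAT and 17.8% held TGACG. Atp6ap2 held no TATAAA in this stretch, and instead 3 CCAAT and 1 TGACG. Among the members not printed, TATAAA was found in Agtr1b and Enpep and CCAAT in Agtr1b, Enpep, Mas1 and 2 of the 3 Mme entries. These matches describe the letters and were not tested for any function.

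Per length, Ren1 was the most abundant member in Ctrl at 64.1 ± 24.9 FPKM (SD, n = 4 mice). Atp6ap2 at 34.1 ± 0.739, Agt at 29.8 ± 10.4 and Ace at 19.5 ± 3.07 FPKM followed, of which Ace overlapped Agt and Agt overlapped Atp6ap2. Mme (11.5 ± 1.64), Enpep (11.03 ± 1.68) and Agtr1a (8.84 ± 2.01) came next. Mme did not overlap Ace, while Enpep overlapped Mme and Agtr1a overlapped Enpep. Mas1 at 0.700 ± 0.260 FPKM was far lower, and Agtr1b at 0.0228 ± 0.0456 FPKM was lowest. In Model the order was Ren1, Agt, Atp6ap2, Agtr1a, Enpep, Ace and Mme before Mas1 and Agtr1b, with Ren1 at 40.4 ± 15.9 and Ace at 4.54 ± 1.14 FPKM. In YHY, Agt at 51.1 ± 9.204 FPKM stood first, without overlap with Ren1 at 20.7 ± 14.5 FPKM. Agtr1a thus stood above Ace and Mme in both diabetic groups and below them in Ctrl, in mean FPKM.

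Between Model and Ctrl, the comparison that asks what diabetes changes, Ace, Mme and Atp6ap2 were lower in Model, and no member was higher. Ace was 4.30-fold lower (log2 fold change -2.10, SE 0.21), Mme 2.70-fold lower (-1.43, SE 0.15) and Atp6ap2 1.81-fold lower (-0.86, SE 0.16), each with the 4 Model mice below the 4 Ctrl mice. These 3 calls are among 7 members tested by edgeR's quasi-likelihood test with Benjamini-Hochberg adjustment over 17431 genes at an adjusted p under 0.05. The same rule called 38.0% of all genes, 19.6% higher and 18.5% lower. Mas1, which passed the filter on low counts only through its Ctrl counts, is left out of these counts of members, and Agtr1b was not tested. With the limits of the study, an unadjusted p under 0.05 with a fold change above 1.2, the same 3 members and 46.9% of all genes were called.

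Between YHY and Model, the comparison that asks what the decoction changes in diabetic mice, Enpep was 2.27-fold lower in YHY (log2 fold change -1.18, SE 0.27) and Atp6ap2 1.69-fold lower (-0.76, SE 0.16). For each of these genes the 4 YHY mice lay below the 4 Model mice. Agt was 1.59-fold higher in YHY with no overlap between the groups, but missed the adjusted limit (log2 fold change 0.67, SE 0.21). The calls were thus 2 of 7 members, against 13.3% of all genes, 5.63% higher and 7.62% lower. Under the limits of the study 4 members and 28.6% of all genes were called. The count of all genes called, 2311, was 1146 without Model mouse 3.

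YHY against Ctrl was not a planned comparison and shares its mice with both others. Here 6 of 7 members were called, against 50.3% of all genes, 26.1% higher and 24.2% lower. Agt was higher in YHY, and Ren1, Atp6ap2, Ace, Mme and Enpep were lower. The limits of the study called the same 6 members and 56.0% of all genes. With so few genes, none of these shares is read as particular to the renin-angiotensin genes.

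**Figure D1:**
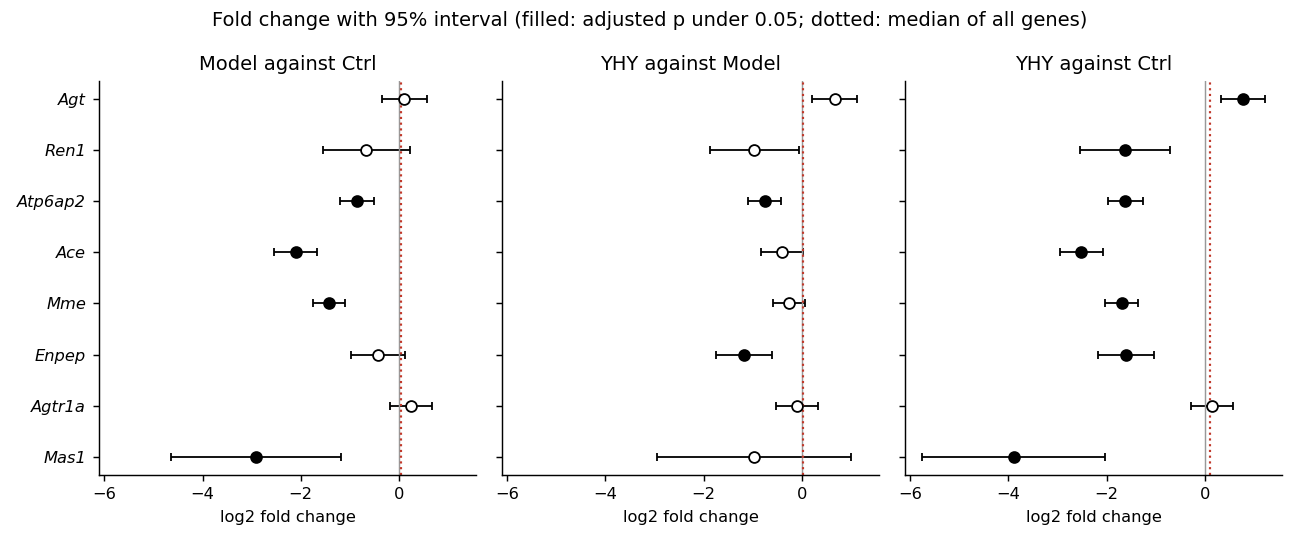
Log2 fold change of each tested member in the 3 comparisons, with its 95% interval from the edgeR fit of 12 mice; filled points have an adjusted p under 0.05, and the dotted line is the median of all genes tested. Mas1 entered the test only through its Ctrl counts, and its filled points are not taken as calls. For Model against Ctrl Ace lies at -2.10 and Enpep at -0.43, and for YHY against Model at -0.41 and -1.18; Agt and Agtr1a change sign in Model against Ctrl with scaling by library size alone.

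Agt encodes angiotensinogen, the precursor of all angiotensin peptides. Its level was 38.5, 53.8, 49.1 and 84.3 CPM in Ctrl mice 1 to 4, then 64.7, 63.6, 47.2 and 68.0 CPM in Model mice 1 to 4 and 81.4, 105, 82.9 and 117 CPM in YHY mice 1 to 4. The 4 YHY mice were above every Model mouse, 2 of them were also above Ctrl mouse 4, the highest of its group, and Model and Ctrl overlapped. Against Model, the difference of 0.67 on the log2 scale (95% interval 0.21 to 1.119) had an edgeR adjusted p of 0.0509. Over 21 alternative analyses this adjusted p ran from 0.0211 to 0.160 and passed in 9, namely in 7 of the 9 that changed the scaling, filter, method, mouse set or block and in 2 of the 12 that left out a mouse. Agt was called with the counts outside the mitochondrial genome (log2 fold change 0.79, edgeR adjusted p = 0.0288), with upper-quartile factors (0.68, edgeR adjusted p = 0.0404) and without Ctrl mouse 1 (0.65) or 4 (0.65), and not with library size alone (0.64, edgeR adjusted p = 0.127). Against Ctrl, Agt rose 1.71-fold in YHY (log2 fold change 0.77, SE 0.21, edgeR adjusted p = 0.00674). That call was lost with scaling by library size alone (0.31) and in the 9 mice that make up the authors' group means (0.60), and the alternatives put the edgeR adjusted p between 0.000281 and 0.323. Between Model and Ctrl the log2 difference was 0.11 (SE 0.21, edgeR adjusted p = 0.717). Its sign turned to -0.33 with scaling by library size alone and to -0.08 without Ctrl mouse 1.

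Ren1 encodes renin, the protease that starts the cascade. Ctrl mice 1 to 4 had 74.6, 98.7, 84.9 and 166 CPM of Ren1, Model mice 1 to 4 had 101, 58.0, 70.7 and 38.3 CPM, and YHY mice 1 to 4 had 15.9, 43.5, 13.7 and 64.2 CPM. YHY mice 1 and 3 were the lowest of the 12 and Ctrl mouse 4 the highest; the YHY mice were below every Ctrl mouse and overlapped Model. The spread within YHY, a coefficient of variation of 70.3%, was wider than the 38.9% of Ctrl and the 39.3% of Model. Ren1 fell 3.10-fold in YHY against Ctrl (log2 fold change -1.63, SE 0.43, edgeR adjusted p = 0.00494), and this call was kept in 21 of 21 alternatives. Against Model the log2 fold change was -0.97 (SE 0.42, edgeR adjusted p = 0.144). It was -1.47 without YHY mouse 4, with an edgeR adjusted p of 0.0235, and it also passed without the filter on low counts (-0.98, edgeR adjusted p = 0.0138), in a range from 0.0138 to 0.334 over the alternatives. In Model against Ctrl it was -0.66 (SE 0.42, edgeR adjusted p = 0.228), and scaling by library size alone brought -1.09 and an edgeR adjusted p of 0.0381, the lowest of a range up to 0.488. The table has 0 genes named Ren2. Whether these mice carry that near-identical second renin gene is not given in the sources used here, so the Ren1 counts may not be those of a single gene.

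Atp6ap2 encodes the prorenin receptor, which binds renin and prorenin and is also an accessory subunit of the vacuolar proton pump. Its levels in Ctrl were nearly the same in each mouse, at 90.2, 86.9, 88.7 and 91.4 CPM. Model mice 1 to 4 had 66.1, 40.5, 52.2 and 38.4 CPM, and YHY mice 1 to 4 had 31.3, 27.6, 31.2 and 26.3 CPM. The 3 groups lay apart, with Ctrl highest and YHY lowest. Model fell below Ctrl by 0.86 on the log2 scale (SE 0.16, edgeR adjusted p = 0.000712), and YHY fell below Model by 0.76 (SE 0.16, edgeR adjusted p = 0.00764). From Ctrl to YHY the gene fell 3.07-fold (log2 fold change -1.62, SE 0.16, edgeR adjusted p = 1.89e-06). The step from Model to YHY lost its call with scaling by library size alone (-0.76, edgeR adjusted p = 0.0573, range 0.000458 to 0.0573 over 21 alternatives), and the calls against Ctrl were kept in 21 of 21 alternatives.

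**Figure D2:**
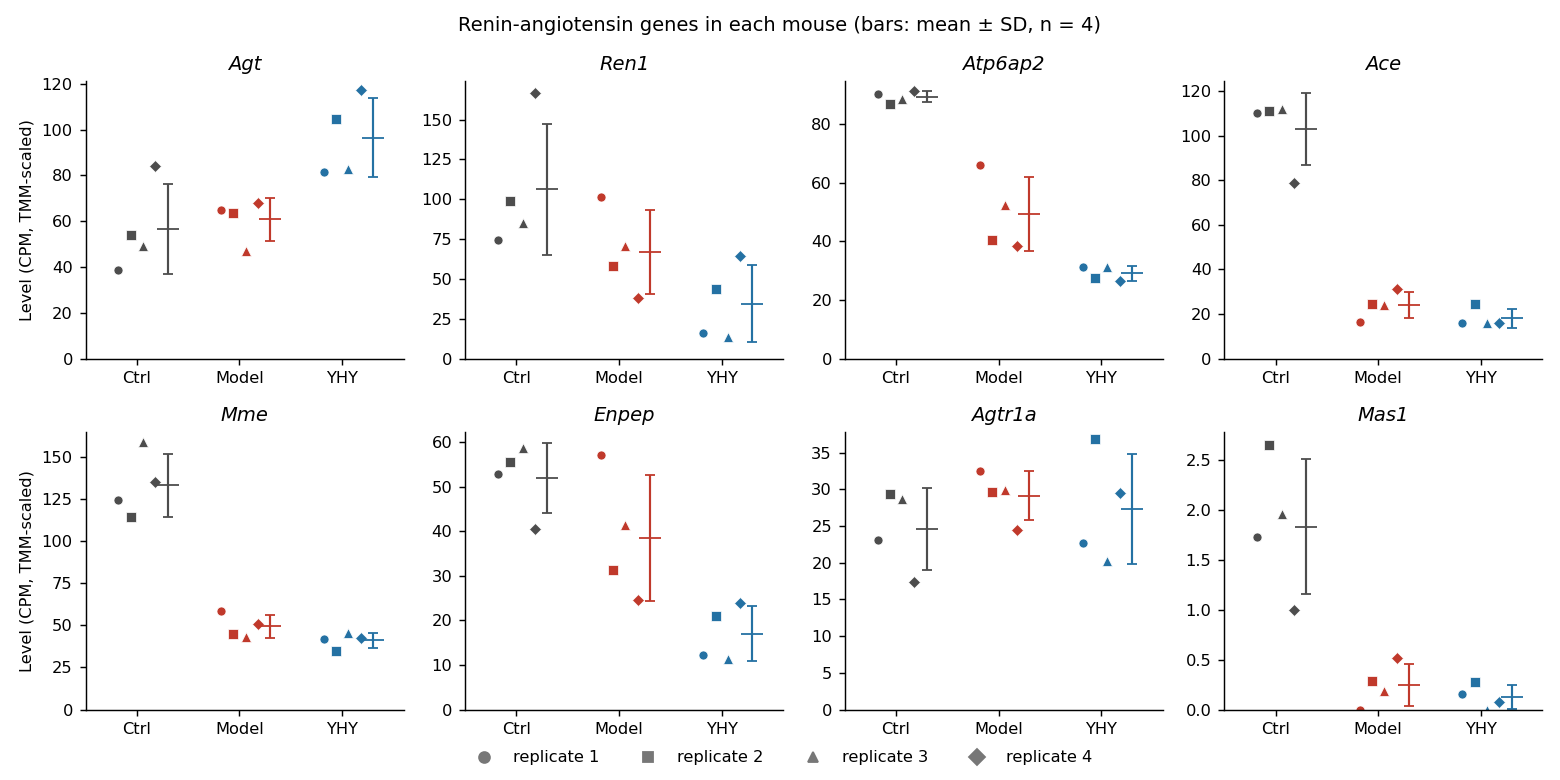
Level in CPM after TMM scaling of 8 members in each of 12 mice, with bars for the mean and SD of 4 mice; the symbol gives the replicate number, and Agtr1b, with 0 to 8 counts, is left out. The Atp6ap2 levels of Ctrl (86.9 to 91.4 CPM), Model (38.4 to 66.1 CPM) and YHY (26.3 to 31.3 CPM) lie apart, whereas those of Agtr1a overlap in the 3 groups.

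Ace encodes angiotensin-converting enzyme, which makes angiotensin II and in kidney sits on endothelium and on the brush border of the proximal tubule. It stood at 110, 111, 112 and 78.7 CPM in Ctrl mice 1 to 4, at 16.4, 24.4, 23.9 and 31.1 CPM in Model and at 15.8, 24.4, 15.96 and 15.99 CPM in YHY. The lowest Ctrl mouse, mouse 4, was still far above the highest diabetic mouse, and the Model and YHY mice overlapped. Ace fell in Model against Ctrl (log2 fold change -2.10, SE 0.21, edgeR adjusted p = 5.13e-06). YHY mice had 5.72-fold less than Ctrl mice (-2.52, SE 0.21, edgeR adjusted p = 3.61e-07). Between YHY and Model the log2 difference was -0.41 (95% interval -0.84 to 0.01, edgeR adjusted p = 0.189). Both calls against Ctrl were kept in 21 of 21 alternatives, and across the analyses other than leaving out a mouse the log2 fold change in Model ran from -2.54 to -1.75.

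Mme encodes neprilysin, a brush-border peptidase that cuts angiotensin I to the shorter peptide of the Mas receptor and degrades many other peptides. Its levels were 124, 114, 158 and 135 CPM in Ctrl, 58.4, 44.9, 42.9 and 50.9 CPM in Model and 41.7, 34.5, 45.2 and 42.4 CPM in YHY, mice 1 to 4 in each. As with Ace, the diabetic mice lay below all Ctrl mice and overlapped one another. Mme fell by 1.43 in Model on the log2 scale (SE 0.15, edgeR adjusted p = 1.05e-05), and in YHY against Ctrl it fell 3.24-fold (log2 fold change -1.70, edgeR adjusted p = 7.09e-07). The difference between YHY and Model was -0.27 (SE 0.15, edgeR adjusted p = 0.260). The calls against Ctrl were kept in 21 of 21 alternatives.

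Enpep encodes aminopeptidase A, which turns angiotensin II into angiotensin III. Ctrl mice 1 to 4 had 52.8, 55.5, 58.7 and 40.6 CPM, Model mice 1 to 4 had 57.1, 31.2, 41.4 and 24.5 CPM, and YHY mice 1 to 4 had 12.2, 20.9, 11.3 and 23.8 CPM. Model mouse 1 was within the Ctrl range while Model mice 2 and 4 were below it, and all YHY mice were below all others, YHY mouse 4 only just. YHY fell below Model by 1.18 on the log2 scale (SE 0.27, edgeR adjusted p = 0.0105), a call kept in 21 of 21 alternatives. Against Ctrl, YHY was 3.05-fold lower (log2 fold change -1.61, SE 0.27, edgeR adjusted p = 0.000147). The log2 difference between Model and Ctrl was -0.43 (SE 0.26, edgeR adjusted p = 0.214). Without Model mouse 1 it was -0.74 with an edgeR adjusted p of 0.0281, and it also passed with scaling by library size alone (-0.82) and in the 9 mice of the authors' means (-0.70), with adjusted p from 0.0182 to 0.711 over the alternatives.

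Agtr1a encodes the main type 1 angiotensin II receptor of the mouse kidney. Its level was 23.1, 29.4, 28.7 and 17.4 CPM in Ctrl mice 1 to 4, 32.5, 29.7, 29.9 and 24.5 CPM in Model and 22.6, 36.8, 20.3 and 29.5 CPM in YHY. The 3 groups overlapped, and the highest mouse, YHY mouse 2, and the lowest, Ctrl mouse 4, were in different groups. The log2 fold change was 0.24 in Model against Ctrl (SE 0.20, edgeR adjusted p = 0.359), -0.09 in YHY against Model (SE 0.20, edgeR adjusted p = 0.810) and 0.15 in YHY against Ctrl (SE 0.20, edgeR adjusted p = 0.564). The sign of each depended on the scaling. Scaling by library size alone brought -0.17 in Model and -0.31 in YHY against Ctrl, whereas scaling by the counts outside the mitochondrial genome brought 0.58 and 0.61, the latter with edgeR adjusted p of 0.0136 and 0.00668, in ranges of 0.0136 to 0.849 and 0.00668 to 0.911. YHY against Model was 0.038 with that scaling and 0.022 without YHY mouse 3, and YHY against Ctrl was -0.06 without Ctrl mouse 4 and -0.03 without YHY mouse 2. Gm48161, a non-coding gene listed on the same strand within Agtr1a, had 3 to 30 counts per mouse.

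Agtr1b, the second type 1 receptor gene of rodents, had 8 counts in Ctrl mouse 3, 6 in Model mouse 2 and 6 in YHY mouse 2. The other 9 mice had 0 counts, which allows a level of up to 0.0682 to 0.137 CPM, depending on the mouse. It was filtered out before testing, and no difference between the groups was detectable at this depth. The reading frames of Agtr1a and Agtr1b, each 1080 bases in the GENCODE transcripts of GRCm38, are 90.8% identical. Over the whole transcripts, the longest identical stretch is 66 bases. Of the windows of 50 bases of the whole Agtr1b transcript, 1.57% occur in Agtr1a transcripts, and of the windows of 100 bases 0%. How reads that match both genes were counted is not given in the sources used here, so the few Agtr1b counts are uncertain.

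Mas1 encodes the Mas receptor, which answers to the shorter angiotensin peptide and opposes many actions of angiotensin II. It had 72, 85, 80 and 44 counts in Ctrl mice 1 to 4, 0, 6, 4 and 12 counts in Model mice 1 to 4 and 4, 5, 0 and 2 counts in YHY mice 1 to 4. Every diabetic mouse was thus well below every Ctrl mouse in counts, and Model mouse 1 and YHY mouse 3 were at 0, which allows up to 0.0965 and 0.112 CPM. After TMM scaling the gap was narrower, from 1.00 CPM in Ctrl mouse 4, the lowest of Ctrl, to 0.513 CPM in Model mouse 4, the highest diabetic mouse. Because Mas1 came into the test only through Ctrl, where it was high, its fits describe these counts and are not taken as calls. The fitted log2 difference between Model and Ctrl was -2.92 with a wide 95% interval of -4.64 to -1.19, and -3.60 without Model mouse 4. Between YHY and Ctrl it was -3.90 (SE 0.88), and -4.52 without YHY mouse 2. The log2 difference between YHY and Model, -0.98 with an SE of 0.93, could not be resolved at these counts (edgeR adjusted p = 0.530). The non-coding gene Airn overlaps Mas1 on the opposite strand, for which reason its counts are given: 433, 682, 695 and 305 in Ctrl, 166, 109, 66 and 68 in Model and 42, 32, 44 and 93 in YHY. The use of strand in the counting is not given in the sources used here, and without it reads of the stretch shared by Airn and Mas1 cannot be told apart.

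The scaling of the libraries moved all fold changes against Ctrl together. Relative to TMM, scaling by library size alone moved the median log2 fold change of all genes by -0.43 when Model was set against Ctrl and by as much when YHY was. Scaling by the counts outside the mitochondrial genome moved it by 0.33 and 0.46 in these comparisons and by 0.14 in YHY against Model, and upper-quartile factors moved it by 0.10 and 0.12 against Ctrl. The split of all calls moved with it. In Model against Ctrl 3412 genes were higher and 3219 lower with TMM, 1547 and 5670 with library size alone, and 5555 and 1609 with counts outside the mitochondrial genome. In YHY against Model the split was 982 higher and 1329 lower with TMM, 491 and 687 with library size alone, and 1509 and 830 with counts outside the mitochondrial genome. For YHY against Ctrl it was 4547 and 4215 with TMM, 2365 and 5979 with library size alone, and 7406 and 2140 with counts outside the mitochondrial genome. Counts of each list under these scalings, given below, stand beside these counts of all 17431 genes. Relative to the median gene of the TMM fit, Ace lay at -2.14, Mme at -1.47 and Atp6ap2 at -0.89 in Model against Ctrl, on the log2 scale.

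**Figure D3:**
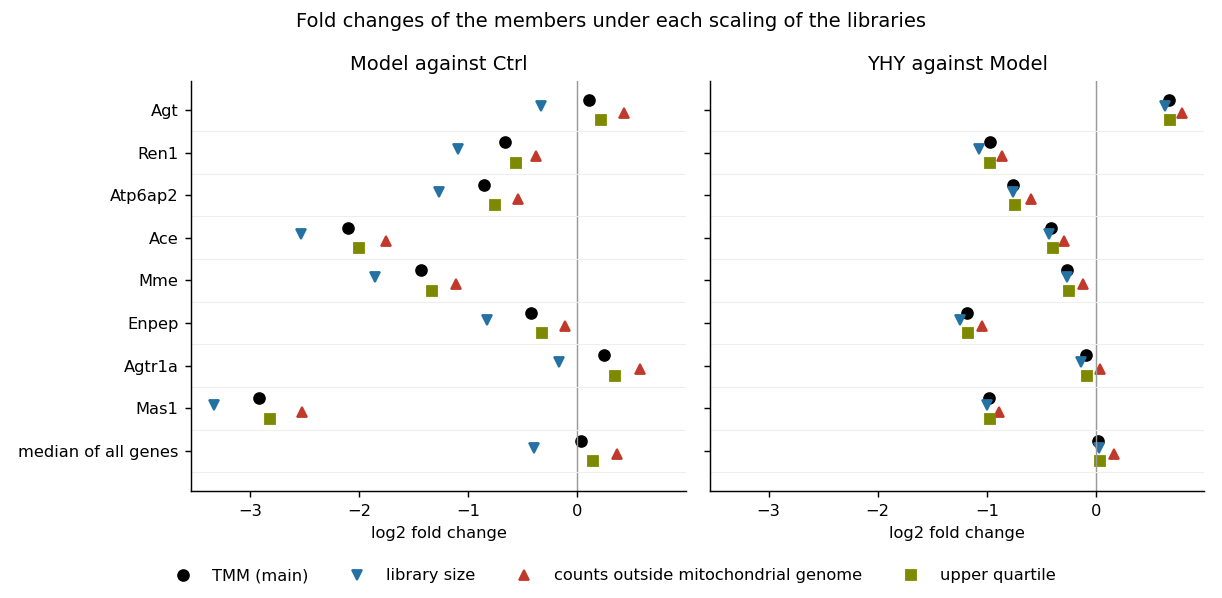
Log2 fold change of the members and the median of all genes under 4 scalings of the libraries, for Model against Ctrl (left) and YHY against Model (right). In Model against Ctrl the scalings shift all members with the median gene, so that Agt runs from -0.33 to 0.42 and changes sign, as does Agtr1a (-0.17 to 0.58), whereas Ace stays between -2.54 and -1.75; in YHY against Model the symbols lie close together, and Agtr1a changes sign near 0.

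Ratios of counts within a mouse do not depend on that scaling. Ren1 had 1.94, 1.84, 1.73 and 1.97 counts per Agt count in Ctrl mice 1 to 4, 1.56, 0.911, 1.50 and 0.563 in Model mice 1 to 4 and 0.195, 0.416, 0.165 and 0.548 in YHY mice 1 to 4. The 4 Ctrl mice were nearly alike and above all others, and the YHY mice were below all others. The mean log2 ratio and its SD over 4 mice were 0.90 ± 0.09 for Ctrl, 0.07 ± 0.69 for Model and -1.77 ± 0.84 for YHY. The differences of the mean log2 ratio, -0.83 between Model and Ctrl, -1.84 between YHY and Model and -2.67 between YHY and Ctrl, each had p = 0.0286 by a two-sided exact permutation test, the smallest that 4 mice against 4 can give. Over the 9 ratio tests made the adjusted p was 0.0514 for each exact permutation test, which misses 0.05. The ratio of Agtr1a to Agtr1b, with Agtr1b near 0, differed by -0.35, -0.13 and -0.48 on the log2 scale in Model against Ctrl, YHY against Model and YHY against Ctrl (p = 0.543, 0.8 and 0.457 in the exact permutation test). No direction can be read from these values, since they rest on the 1 mouse per group with any Agtr1b count. Leaving out a mouse turned each sign, with ranges of -1.27 to 0.63, -1.11 to 0.77 and -1.40 to 0.43 in the same order.

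**Figure D4:**
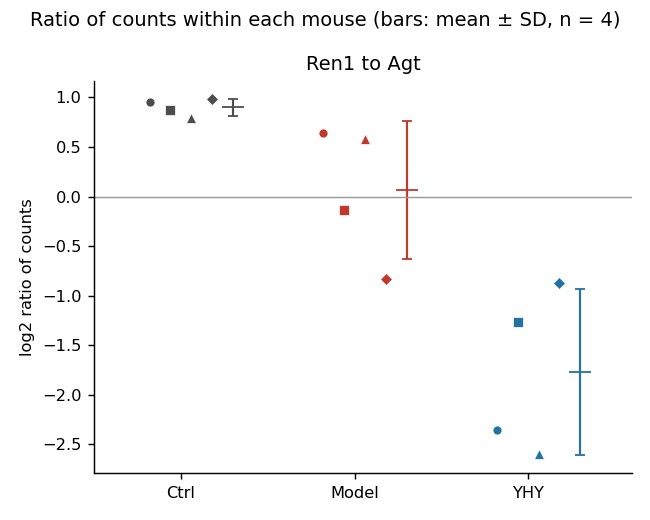
Log2 ratio of counts of Ren1 to Agt in each of 12 mice, with bars for the mean and SD of 4 mice. Ren1 to Agt goes from 0.90 in Ctrl to 0.07 in Model and -1.77 in YHY with no overlap between groups.

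The genes whose pattern over the 12 mice was most like that of 3 members were found by the root-mean-square difference of log2 CPM after subtracting the mean of each gene, among 12978 genes. For Ren1 these were Tst (0.35), Slc5a11 (0.36) and Habp2 (0.36), where a flat gene would differ from Ren1 by 1.02. Tst had a mean level (with the SD of 4 mice) of 105 ± 23.9 CPM for Ctrl, 65.4 ± 15.98 CPM for Model and 28.5 ± 14.4 CPM for YHY. For Agt they were Bcl9l (0.20), Zfp970 (0.21) and Plpp5 (0.22), against 0.46 for a flat gene, and Bcl9l had 14.3 ± 2.99, 14.1 ± 2.79 and 25.3 ± 4.51 CPM in Ctrl, Model and YHY. For Ace they were Ghr (0.20), which encodes the growth hormone receptor, Slc9a8 (0.22) and Mep1b (0.23), a brush-border protease, against 1.14 for a flat gene. Ghr had 789 ± 43.0, 187 ± 14.8 and 146 ± 34.0 CPM in Ctrl, Model and YHY. Since these genes were picked for their likeness to the members, such levels follow from the choice and are no separate observation.

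Among 15 further peptidases of angiotensins and kinins, 13 were tested. In Model against Ctrl 3 were lower and 0 higher, close to the 18.5% of all genes that were lower, with a median log2 fold change of -0.19 against 0.04 for all genes. That median was -0.62 with library size alone (all genes -0.39). With the counts outside the mitochondrial genome it was 0.14 (all genes 0.36). Prep (19.2 ± 1.81 CPM in Ctrl and 9.99 ± 1.62 in Model, SD, n = 4) and Prcp (37.5 ± 5.94 and 21.0 ± 4.90 CPM), which cut angiotensin peptides at proline, fell by 0.94 and 0.83 on the log2 scale. Anpep, the aminopeptidase that degrades angiotensin III, fell by 0.78 in Model, from 136 ± 28.8 to 79.3 ± 17.5 CPM. In YHY against Model 2 were lower and 0 higher (median -0.27, all genes 0.02), where 7.62% of all genes were lower and 5.63% higher. Anpep fell by a further 0.91 to 42.3 ± 6.08 CPM (SE 0.19, edgeR adjusted p = 0.00635) with the 4 YHY mice below every Model mouse. The protease Ctsd fell by 0.49 with an edgeR adjusted p of 0.0497, but passed in only 4 of 21 alternatives (0.0124 to 0.140), and of the fits that left out a mouse only those without Ctrl mouse 2 and without Model mouse 2 kept it. Of the scalings, library size alone (-0.51), the counts outside the mitochondrial genome (-0.35) and upper-quartile factors (-0.48) did not call Ctsd.

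In YHY against Ctrl 9 of the 13 peptidases were lower and 0 higher, where 24.2% of all genes were lower and 26.1% higher, with a median of -0.58 where that of all genes was 0.10. Anpep (-1.69), Prcp (-1.21) and Prep (-1.14) fell in log2 fold change with the 4 YHY mice below every Ctrl mouse. The kallikrein Klk1, which frees kinins, went from 1427 ± 436 CPM in Ctrl to 751 ± 351 CPM in YHY. Its fall of 0.93 on the log2 scale (edgeR adjusted p = 0.0269) was not called without Ctrl mouse 2 (-0.70), nor without YHY mouse 1 (-0.79), 2 (-0.93) or 3 (-0.77), nor with scaling by the counts outside the mitochondrial genome (-0.48), in a range of 0.000646 to 0.145 over 21 alternatives. The count depended on the scaling. It was 12 lower and 0 higher with library size alone, where 5979 of all 17431 genes were lower and 2365 higher. With the counts outside the mitochondrial genome it was 3 lower and 1 higher, where 2140 of all genes were lower and 7406 higher. The median of the list was -1.03 and -0.12 in these scalings (all genes -0.33 and 0.57). Anpep, Prcp and Prep were lower and called in every scaling.

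Of 12 other receptors and receptor partners, 9 were tested, since the type 2 receptor Agtr2, Mrgprd and Bdkrb1 were near 0. In Model against Ctrl Arrb2 was higher and Arrb1 lower, by 0.68 and -0.63 on the log2 scale, 1 of 9 each way where 19.6% of all genes were higher and 18.5% lower. These genes encode the beta-arrestins, which end signalling of the type 1 receptor. Arrb2 was not called with scaling by library size alone (0.23), nor Arrb1 with the counts outside the mitochondrial genome (-0.31). In YHY against Model 0 were higher and 2 lower (all genes 5.63% and 7.62%). Agtrap, whose product takes the type 1 receptor off the cell surface, fell by 0.78 (60.0 ± 8.81 CPM in Model, 34.8 ± 4.36 in YHY, SD, n = 4, edgeR adjusted p = 0.00443). Gna11, a G protein subunit of this receptor's pathway, fell by 0.59 (edgeR adjusted p = 0.0165, range 0.00265 to 0.123 over 21 alternatives, not called without Model mouse 3 at -0.56). It was also not called with scaling by library size alone (-0.56), by the counts outside the mitochondrial genome (-0.44) or in a fit of the 8 mice compared (-0.53). Against Ctrl, 2 were higher and 3 lower in YHY (all genes 26.1% and 24.2%), a split that was 1 and 4 with library size alone and 5 and 1 with the counts outside the mitochondrial genome. Agtrap fell by 1.16 and the phospholipase Plcb1 by 0.98, and Arrb2 rose by 0.76 and the bradykinin receptor Bdkrb2 by 2.16, the last with 11 to 32 counts per mouse in Ctrl and 14 to 98 in YHY. Arrb2 was not called with library size alone (0.31), nor Plcb1 with the counts outside the mitochondrial genome (-0.49). Bdkrb2 was highest in YHY mouse 2 and was not called without it (1.22, edgeR adjusted p = 0.0945, range 0.00153 to 0.0945), nor in the 9 mice of the authors' means (1.93). The medians of this list were 0.28, -0.02 and 0.02 in the 3 comparisons. They were -0.17, -0.03 and -0.42 with library size alone (all genes -0.39, 0.03 and -0.33). With the counts outside the mitochondrial genome they were 0.61, 0.13 and 0.49 (all genes 0.36, 0.16 and 0.57).

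All 16 genes of the control of renin synthesis and release were tested, with 4 higher and 4 lower in Model against Ctrl. YHY had 2 and 1 against Model, and 5 and 3 against Ctrl. Of all genes 19.6% were higher and 18.5% lower in the first of these comparisons, 5.63% and 7.62% in the next and 26.1% and 24.2% in the last. With library size alone the last split turned to 3 higher and 6 lower. The medians were 0.03, 0.21 and -0.08 where those of all genes were 0.04, 0.02 and 0.10. With library size alone these medians were -0.43, 0.27 and -0.48 (all genes -0.39, 0.03 and -0.33). With the counts outside the mitochondrial genome they were 0.32, 0.38 and 0.39 (all genes 0.36, 0.16 and 0.57). Ptgs2 encodes cyclooxygenase 2, whose prostaglandins promote renin release at the macula densa. It had 4.37, 4.08, 2.67 and 5.05 CPM in Ctrl mice 1 to 4, 10.7, 7.43, 14.3 and 15.3 CPM in Model and 20.1, 32.8, 10.6 and 9.37 CPM in YHY. All diabetic mice were above all Ctrl mice, and Ptgs2 rose by 1.56 in Model (SE 0.36, edgeR adjusted p = 0.00281) and by 2.17 in YHY (SE 0.36, edgeR adjusted p = 0.000133) against Ctrl on the log2 scale. Creb1, whose product acts on the renin gene downstream of cyclic AMP, fell by 0.84 in Model against Ctrl and rose by 0.65 in YHY against Model, with means (SD, n = 4) of 21.4 ± 2.83 CPM for Ctrl, 11.9 ± 1.96 for Model and 18.7 ± 2.11 for YHY. Its rise was not called with scaling by library size alone (0.64) or without Model mouse 3 (0.55). Over 21 alternatives the adjusted p of edgeR or DESeq2 ran from 0.00253 to 0.0688.

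Vdr encodes the vitamin D receptor, a repressor of the renin gene, and fell by 0.78 in YHY against Model (Model 92.7 ± 12.0 CPM, YHY 54.2 ± 15.1 CPM, SD, n = 4, edgeR adjusted p = 0.0215). That call was lost without Model mouse 2 (-0.68) and without Model mouse 3 (-0.80), in a range of 0.00410 to 0.0612. The cyclase Adcy6 rose by 0.65 in Model against Ctrl, by 0.54 in YHY against Model and by 1.19 in YHY against Ctrl. The first of these was not called with scaling by library size alone (0.18). Its second step passed in 12 of 21 alternatives (edgeR adjusted p = 0.0397, range 0.0135 to 0.113), and of the fits that left out a mouse, those without Ctrl mouse 2 (0.54) or 3 (0.54), without Model mouse 1 (0.45), 3 (0.52) or 4 (0.55) and without YHY mouse 2 (0.51) or 3 (0.49) did not call it, nor did scaling by library size alone (0.56) or the 9 mice of the authors' means (0.47). Adcy5 rose by 1.01 in YHY against Ctrl. The liver X receptors Nr1h2 and Nr1h3 went opposite ways in Model against Ctrl, by 0.72 and -0.69, and Nr1h3 fell by 1.04 in YHY against Ctrl. Nr1h2 was not called with scaling by library size alone (0.28), nor was Adcy5 (0.57), and Nr1h3 in Model was not called with the counts outside the mitochondrial genome (-0.36).

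Aldosterone is the hormone that angiotensin II releases from the adrenal gland, and 11 genes of its receptor and targets in the kidney were all tested. In Model against Ctrl 3 were higher and 2 lower, in YHY against Model 1 and 0, and in YHY against Ctrl 6 and 2, with medians of 0.29, 0.23 and 0.60 (all genes 0.04, 0.02 and 0.10). The shares of all genes were 19.6% higher and 18.5% lower, 5.63% and 7.62%, and 26.1% and 24.2%. With library size alone the higher genes were 2, 0 and 3 and the lower ones 4, 0 and 2 in the 3 comparisons. With the counts outside the mitochondrial genome they were 5, 3 and 7 higher and 2, 0 and 1 lower. The medians of the list were -0.14, 0.23 and 0.20 with library size alone (all genes -0.39, 0.03 and -0.33). They were 0.61, 0.37 and 1.07 with the counts outside the mitochondrial genome (all genes 0.36, 0.16 and 0.57). The clock gene and aldosterone target Per1 rose by 2.59 in Model against Ctrl, from 14.8 ± 5.88 to 88.9 ± 17.1 CPM (SD, n = 4, edgeR adjusted p = 5.42e-05), and stood at 113 ± 58.3 CPM in YHY. The sodium chloride cotransporter Slc12a3 rose by 1.33, from 139 ± 36.7 to 349 ± 62.5 CPM. Of the lower genes, Hsd11b2 is reported here, the enzyme that shields the receptor from glucocorticoids, which fell by 1.54 in Model against Ctrl, from 162 ± 43.6 to 55.5 ± 25.0 CPM. In YHY against Ctrl Per1 (2.93), Sgk1 (1.43) and Slc12a3 (1.28) rose, and Hsd11b2 fell by 0.78. This fall of Hsd11b2 was not called with the counts outside the mitochondrial genome (-0.31) or without Ctrl mouse 4 (-0.66). The kinase Sgk1 had 91.6, 78.6, 83.8 and 89.8 CPM in Model and 165, 167, 75.1 and 311 CPM in YHY. It was thus higher in 3 of 4 YHY mice than in any Model mouse, with a log2 fold change of 1.06 (edgeR adjusted p = 0.0432). Its call passed in 10 of 21 alternatives (range 0.00186 to 0.129), and of the fits that left out a mouse only those without Ctrl mouse 2 or 4 or YHY mouse 3 kept it; without YHY mouse 4 the value was 0.66. Scaling by library size alone did not call it either (1.02), nor did the 9 mice of the authors' means (0.70).

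**Figure D5:**
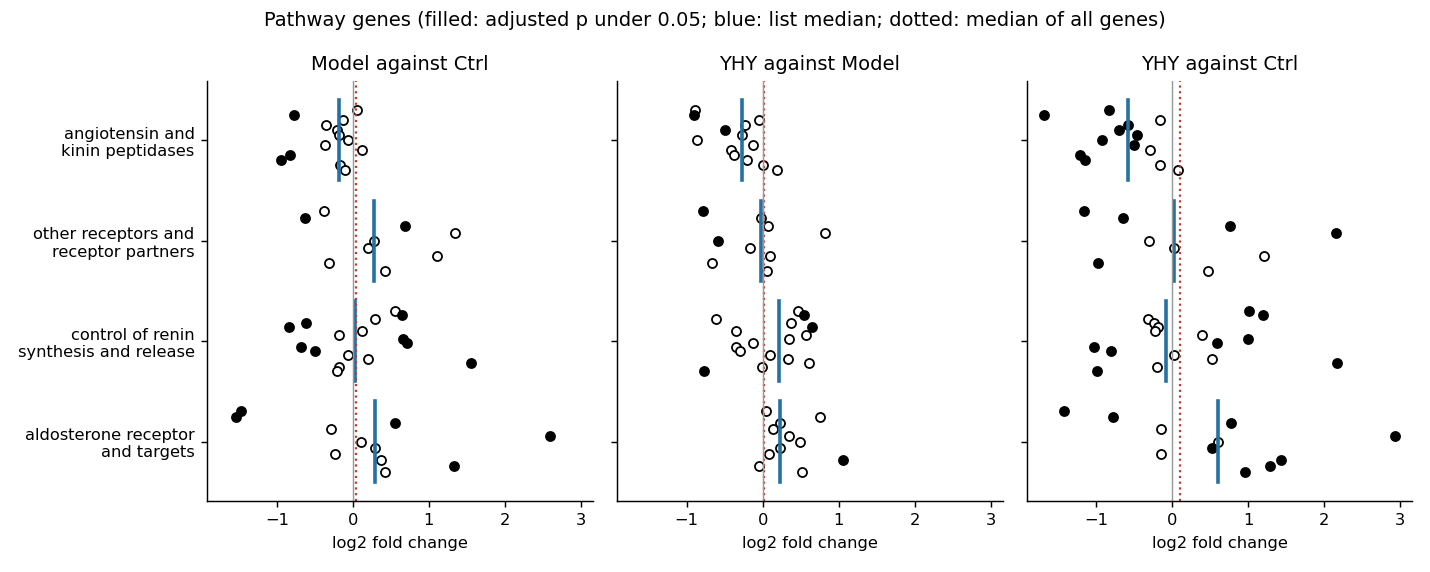
Log2 fold change of each tested gene of the 4 pathway lists in the 3 comparisons; filled points have an adjusted p under 0.05, the blue bar is the median of the list and the dotted line that of all genes tested. Of the 13 peptidases tested, 9 are lower in YHY against Ctrl at a median of -0.58, a count that is 3 with scaling by the counts outside the mitochondrial genome, and Per1 lies farthest to the right in Model against Ctrl at 2.59.

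The other lists changed with scaling as well. With library size alone, Model against Ctrl had 10 lower peptidases and 0 higher, 3 and 0 of the receptor list, 5 and 1 of renin control and 4 and 2 of the aldosterone list. Of all 17431 genes, 5670 were lower and 1547 higher with that scaling. With the counts outside the mitochondrial genome the lower and higher counts were 3 and 1, 0 and 5, 1 and 5, and 2 and 5 in the same order. Here 1609 of all genes were lower and 5555 higher. The genes Prep, Prcp, Anpep, Ptgs2, Creb1, Per1, Hsd11b2 and Slc12a3 kept both sign and call in Model against Ctrl under each of these scalings.

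Markers of cell types were set beside the members. The summed level of 9 proximal tubule markers was 4945, 6195, 5187 and 4710.0 CPM in Ctrl mice 1 to 4, 4552, 4331, 4776 and 3659 CPM in Model and 1981, 3695, 2433 and 4887 CPM in YHY. Of these markers 3 were lower and 1 higher in Model against Ctrl, where 18.5% of all genes were lower and 19.6% higher. YHY had 1 lower and 0 higher against Model (7.62% of all genes lower and 5.63% higher). Against Ctrl it had 5 and 1 (24.2% of all genes lower and 26.1% higher). Slc34a1 made up the largest part of the sum, which is not corrected for length. With library size alone the lower and higher counts against Ctrl were 4 and 0 in Model and 5 and 0 in YHY, and with the counts outside the mitochondrial genome 2 and 1, and 5 and 2. None was at 0. Lrp2, which encodes megalin, fell by 1.68 in Model against Ctrl, while Slc34a1 was at 2040 ± 570 CPM in Ctrl and 2124 ± 260 CPM in Model (SD, n = 4). The 8 androgen-responsive proximal tubule genes were all lower in Model and in YHY than in Ctrl, with medians of -2.76 and -3.70, and 6 of 8 in each comparison with the counts outside the mitochondrial genome. In YHY against Model 2 of them were lower and 1 higher (median -0.37), against 7.62% and 5.63% of all genes. Their sum in CPM, of which Kap made up the largest part, was 47089, 60210.4, 48802 and 21477 CPM in Ctrl, 7277, 3728, 6267 and 4447 CPM in Model and 3670.0, 6171, 1911 and 5334 CPM in YHY. Ace, Mme and Enpep are brush-border genes, and the part of these markers in their differences was not tested.

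For Ren1, the nearest markers were 10 genes of vascular smooth muscle, mesangial and juxtaglomerular cells. Their sum was 251, 241, 247 and 187 CPM in Ctrl mice 1 to 4, 258, 287, 247 and 233 CPM in Model and 262, 317, 277 and 221.8 CPM in YHY, and none was at 0. Of the 10, 3 were higher and 0 lower in Model against Ctrl. YHY had 1 higher and 0 lower against Model and 2 and 1 against Ctrl. Of all genes 19.6% were higher and 18.5% lower in Model against Ctrl. For YHY these shares were 5.63% and 7.62% against Model and 26.1% and 24.2% against Ctrl. The split depended on the scaling: with library size alone it was 1 higher and 2 lower in Model and 0 and 2 in YHY against Ctrl, and with the counts outside the mitochondrial genome 5 and 0, and 6 and 0. The marker lower in YHY against Ctrl was Akr1b7, a gene of renin cells, with 2.42 ± 0.186 CPM for Ctrl, 1.88 ± 0.527 for Model and 0.982 ± 0.529 for YHY (SD, n = 4) and a log2 fold change of -1.29 (SE 0.43, edgeR adjusted p = 0.0196). It was not called with scaling by the counts outside the mitochondrial genome (-0.85). Akr1b7 is named here after its values were seen. The 2 other markers called in YHY against Ctrl, Pdgfrb (0.75) and Notch3 (0.83), went the other way. In YHY against Model Akr1b7 was not called (-0.94, edgeR adjusted p = 0.166). The summed proximal tubule markers given above were, like Ren1, lowest in YHY mice 1 and 3 (1981 and 2433 CPM). Ctrl mouse 4 went the other way, with the highest Ren1 (166 CPM) and the lowest of these sums in Ctrl (4710 CPM). The part of any of these cells in the Ren1 differences was not tested.

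Among the remaining markers, the endothelial sum was 253 ± 30.8, 311 ± 35.2 and 320 ± 58.0 CPM in Ctrl, Model and YHY (SD, n = 4 each), with 3 of 8 genes higher and 0 lower in Model against Ctrl. YHY also had 3 and 0 against Ctrl, and 0 and 0 against Model. With library size alone these endothelial counts were 0 and 0 in Model and 1 and 1 in YHY against Ctrl, so they depend on the scaling. These and the counts that follow stand beside 19.6% of all genes higher and 18.5% lower in Model against Ctrl, and 26.1% and 24.2% in YHY against Ctrl, and with so few genes none is set apart from them. The podocyte sum was 129 ± 18.3, 154 ± 65.7 and 107 ± 36.2 CPM, with 2 of 5 genes higher in Model against Ctrl and 3 higher and 1 lower in YHY against Ctrl, or 1 and 1, and 1 and 2, with library size alone. For the loop, distal tubule and collecting duct it was 2655 ± 687, 1771 ± 206 and 1984 ± 430 CPM, with 1 gene higher and 2 lower against Ctrl in both diabetic groups, and 2 higher and 1 lower with the counts outside the mitochondrial genome. For leukocytes it was 89.1 ± 14.2, 80.8 ± 21.0 and 84.6 ± 20.1 CPM, with 1 of 5 genes higher and 1 lower against Ctrl in both, or 0 and 1, and 1 and 2, with library size alone. The 6 adrenal markers summed to 1.99 ± 0.392, 4.56 ± 1.17 and 3.85 ± 0.302 CPM, nearly all of it Star, which rose by 1.32 in Model against Ctrl, and the 5 adipose markers to 0.112 ± 0.131, 0.552 ± 0.579 and 0.382 ± 0.316 CPM.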

How the data were processed

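Kidney mRNA of 12 mice was sequenced by the authors, who deposited raw counts per gene; per the submitters' processing notes reads were handled with FastQC 0.11.9, Trimmomatic 0.39, HISAT2 2.2.1, SAMtools 1.12 and featureCounts 2.0.1 on GRCm39. Of 82002 counts between 1 and 20, 68.0% were even, as when both mates of a pair are counted. The deposited gene lengths gave FPKM. The deposited comparison tables hold group means as a signal scaled per library, which for 100% of genes equal (relative tolerance 1e-04) means without Ctrl mouse 2, Model mouse 1 and YHY mouse 4, besides the authors' log2 fold changes and p-values, which were not used, nor were 12 columns of values per mouse. Gene models without a reference name held 0.172% of counts. Replicates differed by 17.3 to 138.9 in chi-square per degree of freedom, beyond sampling noise.

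Mice were grouped by their labels. Testing used R 4.3.3 and edgeR 4.0.16 (TMM scaling, filterByExpr, glmQLFit and glmQLFTest, two-sided) in 1 fit of the 3 groups, with Benjamini-Hochberg adjustment over 17431 genes. Count ratios used a pseudocount of 0.5 counts and a two-sided exact permutation test (scipy 1.17.1) with adjustment over 9 tests. Some planned genes and 1 planned ratio are left out of the text, though still in the list counts and the adjustment. Intervals of a share are 95% Wilson intervals, a count of 0 is read as at most 3 counts, and both cover counting error only. Alternatives were DESeq2 1.42.0, library-size, outside-mitochondrial and upper-quartile scaling, no filter, at least 10 counts in every mouse, fewer mice, a replicate block and the limits of the study. Ranges of adjusted p over the alternatives include the DESeq2 Wald test. The steps were tested on simulated data. The members, pathway lists and cell type markers were chosen with earlier results of these data known. Named pathway genes are up to 4 per list and comparison with the largest called change, less those left out of the text, with Adcy6 and Hsd11b2 named in further comparisons; genes most like Ren1, Agt and Ace needed a mean of at least 1 CPM, a prior count of 2 and a symbol that is not a model name. Tables came from numpy 2.4.6 and pandas 2.3.3, figures from matplotlib 3.10.9, all in Python 3.11.15.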

Additional observations from a re-analysis of the deposited data

Results flagged for a closer look

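In 72 sets of 4 mice (gene levels, count ratios, library measures and marker sums, each in 3 groups), the highest or lowest mouse was compared with the other 3. In 12 sets it lay farther off than Dixon's 95% limit for its gap over the range. The limit is no test for 5 of these, namely 3 levels of Agtr1b, which was 0 in the other 3 mice, and 2 ratios to the same counts. For the others, chance alone gives about 1 in 20.

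Ace was 78.7 CPM in Ctrl mouse 4, below 110 to 112 CPM in the other Ctrl mice, and 24.4 CPM in YHY mouse 2, above 15.8 to 15.99 CPM in the other YHY mice. Agtr1b was 0.196 CPM in Ctrl mouse 3, 0.286 CPM in Model mouse 2 and 0.331 CPM in YHY mouse 2, where the other mice of each group had 0. The log2 ratio of Agtr1a to Agtr1b counts was accordingly low in Ctrl mouse 3 (7.11, others 10.58 to 10.91) and in YHY mouse 2 (6.68, others 10.09 to 10.58).

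The mitochondrial share was 22.7% of counts in Ctrl mouse 2 (95% Wilson interval 22.70 to 22.73, other Ctrl mice 18.4 to 18.6) and 64.6% in YHY mouse 2 (64.58 to 64.62, other YHY mice 53.8 to 54.6). Ctrl mouse 2 also had the lowest total of its group, 29632718 counts, where the others had 32677732 to 33276634. The summed vascular smooth muscle, mesangial and juxtaglomerular markers were 187 CPM in Ctrl mouse 4, below 241 to 251 CPM in the other Ctrl mice. The summed endothelial markers were 207 CPM in Ctrl mouse 2, below 264 to 271 CPM in the others.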

How the results depend on the processing

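Against Ctrl, the calls of Ace, Mme, Atp6ap2, Ren1 in YHY and Enpep in YHY held in 21 of 21 alternatives, as did Enpep in YHY against Model. Of all alternative values of the members' log2 fold changes, 494 kept direction and call, 19 passed where the value reported had not, 3 no longer passed and 8 reversed. This tally includes the fits of Mas1, which are not taken as calls. Of the named pathway genes' values 676 kept both and 59 no longer passed. The Ren1 to Agt differences kept their sign in every alternative, whereas those of Agtr1a to Agtr1b changed sign with a mouse left out (-1.27 to 0.63 in Model against Ctrl, -1.11 to 0.77 in YHY against Model and -1.40 to 0.43 in YHY against Ctrl). Counts of genes and members called stayed within 1.5 times in 62 and 63 cases.

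In YHY against Model, 2311 genes and 2 members were called (counts of members include Mas1 where it passed). Scaling by library size alone gave 1178 genes and 1 member, the 8 mice compared 1385 genes, no filter 4 members, and the limits of the study 4988 genes and 4 members. Leaving out each mouse gave 1146 to 2721 genes and 2 to 3 members. Beyond the fewer mice or looser limit themselves, the cause was not tested.

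Agt in Model against Ctrl reversed to -0.33 with library size alone and ran from -0.083 to 0.32 with a mouse left out. Agtr1a reversed with library size alone, to -0.17 in Model and -0.31 in YHY against Ctrl, and to 0.038 in YHY against Model with counts outside the mitochondrial genome; with a mouse left out it ran from -0.27 to 0.022 in YHY against Model and -0.056 to 0.26 in YHY against Ctrl. The cause was not tested.

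With the replicate number as a block, 6289, 1920 and 8424 genes and 4, 3 and 7 members passed in Model against Ctrl, YHY against Model and YHY against Ctrl. In both comparisons against Ctrl the members counted include Mas1, which is not taken as a call. With Mas1 counted in the same way, 4, 2 and 7 members passed without the block. No pairing of the mice by these numbers was seen: of 12 same-numbered pairs 2 had deviations correlated above 0.1 (from -0.17 to 0.12), and in 4 the best match had the same number. With 4 mice a group this check cannot exclude a pairing. Agt in YHY against Model was called with the block (0.65), and Ctsd was not (-0.50).

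Mas1 was not tested with at least 10 counts in every mouse, nor in the 8 mice of YHY against Model, and Agtr1b was tested only without a filter. Depth limits Mas1 in the diabetic groups and Agtr1b in all. Reads are not independent molecules, and both mates appear to be counted, so counting errors are larger than the counts imply. With 4 mice a group, a permutation p cannot go below 0.0286.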
